A study of Mus musculus with 6 samples.

Results

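Genes of Leydig cell steroid synthesis, 10 in all, were followed in RNA from cells sorted as THY1-positive spermatogonia of Ddx20 knockout and control mice. The 10 were chosen by name: Scarb1 and Star for cholesterol uptake and import, Cyp11a1, Hsd3b1 and Cyp17a1 for steroid synthesis, Fdx1 and Fdxr for electron transfer, and Nr5a1, Lhcgr and Insl3 as regulators and hormone. Each was found by its Ensembl identifier, and all 10 are among the 22579 genes of the deposited table. The tested samples were 3 libraries of THY1-positive spermatogonia from mice whose genotype is given as Ddx20 knockout, and the controls were 3 libraries of the same cells from control littermates. All 6 libraries were taken at day 4, with about 1000 cells in each. Column names of the deposited table write cKO for the knockouts; no Cre driver, deleted cell type or strain is named. DDX20 is a DEAD-box RNA helicase of the SMN complex. The series asks how the transcriptome of spermatogonia differs once it is lost.

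Leydig cells are the steroid-producing cells between the seminiferous tubules. Luteinizing hormone acts on them through LHCGR and cyclic AMP, cholesterol is taken up and moved into mitochondria, CYP11A1 cleaves its side chain to give pregnenolone, and HSD3B and CYP17A1 carry the product on towards androgens. In the newborn mouse the interstitium holds fetal Leydig cells, which make androstenedione and INSL3 and express little of the last enzyme, HSD17B3. Fdx1, Fdxr and Scarb1 also serve many other cells. In bulk libraries, fewer cells of a type and less RNA per cell cannot be told apart.

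The sequence before the start of 4 Leydig-restricted genes is shown because NR5A1, a nuclear receptor and itself 1 of the 10 genes, is known to act on promoters of steroidogenic genes. RefSeq promoters (GRCm38.p6) were at hand for 6 of the 10 genes: Cyp11a1, with 2 starts, Fdx1, Fdxr, Hsd3b1, Lhcgr and Insl3. The others were Scarb1, Star, Cyp17a1 and Nr5a1. Each line gives the 250 bases before the start on the gene's strand, with the nuclear receptor motif AGGTCA in capitals (both strands were searched, and both matches are on the strand shown). The lines are Cyp11a1 at its inner start (chr9:58014702-58014951, plus strand), Lhcgr (chr17:88792015-88792264, minus strand), Hsd3b1 (chr3:98859795-98860044, minus strand) and Insl3 (chr8:71689002-71689251, plus strand).
Cyp11a1: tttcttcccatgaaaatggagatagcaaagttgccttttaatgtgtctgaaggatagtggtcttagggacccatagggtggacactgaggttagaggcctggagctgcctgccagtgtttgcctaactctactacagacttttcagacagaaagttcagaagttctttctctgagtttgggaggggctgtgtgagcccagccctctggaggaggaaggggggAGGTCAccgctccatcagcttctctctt
Lhcgr: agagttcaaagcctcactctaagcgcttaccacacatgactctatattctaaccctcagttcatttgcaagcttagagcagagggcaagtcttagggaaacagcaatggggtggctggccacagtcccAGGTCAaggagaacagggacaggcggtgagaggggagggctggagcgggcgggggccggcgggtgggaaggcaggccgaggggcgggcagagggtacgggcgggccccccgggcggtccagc
Hsd3b1: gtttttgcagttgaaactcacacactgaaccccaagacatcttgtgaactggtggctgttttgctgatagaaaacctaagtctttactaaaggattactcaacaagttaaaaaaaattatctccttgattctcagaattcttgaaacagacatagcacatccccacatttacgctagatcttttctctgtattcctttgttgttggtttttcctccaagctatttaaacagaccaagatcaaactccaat
Insl3: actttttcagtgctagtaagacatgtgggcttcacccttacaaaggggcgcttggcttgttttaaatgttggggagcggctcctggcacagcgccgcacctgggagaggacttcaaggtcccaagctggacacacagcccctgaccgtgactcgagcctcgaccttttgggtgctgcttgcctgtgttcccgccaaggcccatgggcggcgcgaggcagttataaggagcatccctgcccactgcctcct
The motif was in 2 of the 7 promoters of the 6 genes, beginning 28 bases before the start of Cyp11a1 and 122 bases before that of Lhcgr. Of all 32851 promoters in the RefSeq table, 14.0% hold it in the same window. The longer form CAAGGNCA was in 0 of the 7 and in 5.53% of all. These matches describe letters and are no evidence of binding.

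Before the results, some facts of the whole series bear on them, the depth, a close pair of libraries and the scaling. Total counts were 11656130, 11904762 and 12497967 reads in knockout 1 to 3 and 8428871, 11035515 and 11893287 in control 1 to 3. Ddx20 itself had 128, 168 and 119 reads in the knockouts against 668, 383 and 531 in the controls, lower in each knockout library. Knockout 1 and knockout 2 were far closer to each other (mean chi-square per gene 1.78, where sampling noise gives 1) than any other pair (11.96 to 104), and whether they come from separate animals is not stated. Results were therefore also computed with that pair counted as 1 library. Mitochondrially encoded transcripts took 19.8% to 20.1% of reads in knockouts and 14.0% to 16.9% in controls. With those genes left out, edgeR called 716 genes, against 713 with them, and 0 of the 10. What the difference in this share reflects was not tested. The scaling matters for direction: 300 genes were called higher and 413 lower in knockouts with TMM, against 226 and 1152 with library size alone, under which the typical gene stood at -0.26 on the log2 scale (median). The sign of the log2 fold change held for all 10 genes under that scaling, but sizes moved with the median: Scarb1 stood at 0.053 and Hsd3b1 at 0.085, against 0.32 and 0.28 with TMM.

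No gene of the 10 passed the edgeR quasi-likelihood test at a Benjamini-Hochberg adjusted p under 0.05 (called, below). The 10 all passed the filter on low counts. Of all 14766 genes tested, 4.83% were called, 2.03% higher and 2.8% lower in knockouts, so 0 of 10 is near that share. At an unadjusted p under 0.05 there were 3, Fdx1 and Cyp17a1 higher and Nr5a1 lower in knockouts, against 24.1% of all genes (11.3% higher, 12.8% lower). DESeq2 and limma-voom each called the same 2, Fdx1 and Cyp17a1, both higher (limma-voom with sample weights throughout). DESeq2 called 11.1% of all genes, 5.38% higher and 5.74% lower, and limma-voom 19.5%, 7.8% higher and 11.7% lower. With the close knockout pair counted as 1 library, none of the 3 tools called any of the 10, although DESeq2 then gave an adjusted p for Scarb1, Fdx1 and Hsd3b1 alone and none for the others. The knockout and control libraries did not overlap in 4 of the 10, Scarb1, Fdx1 and Cyp17a1 higher and Nr5a1 lower, against 32.6% of all genes (16.8% higher, 15.8% lower). The median log2 fold change of the 10 was 0.30, against 0.01 over all genes tested.

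**Figure D1:**
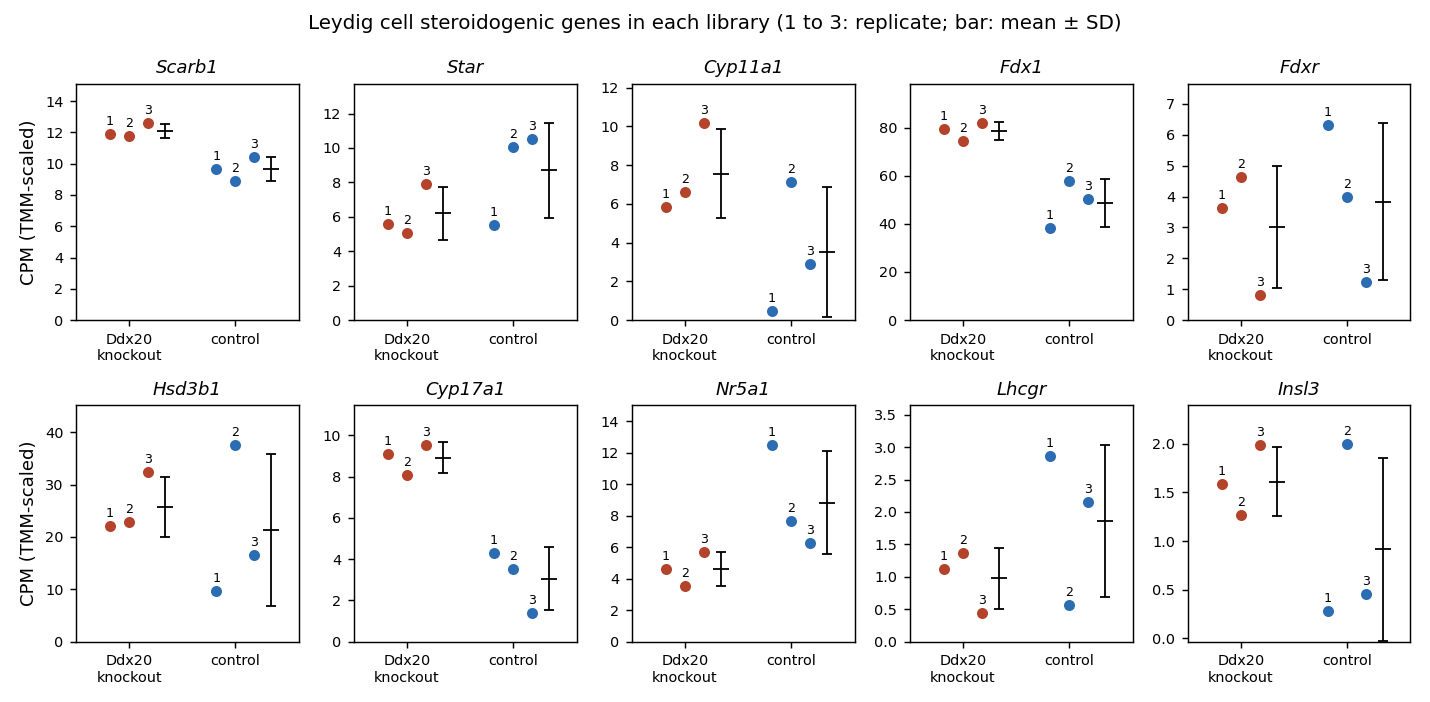
Expression of each of the 10 genes in TMM-scaled CPM in the 3 knockout libraries (left of each panel) and the 3 control libraries; numbers are replicates and bars mean ± SD. Cyp17a1, Fdx1 and Scarb1 sat higher in every knockout library than in any control library, Nr5a1 lower, and the other 6 overlapped.

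Cholesterol enters through SCARB1, the receptor for high-density lipoprotein, and STAR carries it to the inner mitochondrial membrane, the acute control point of steroid synthesis. Scarb1 (chromosome 5, 125277087 to 125341094 of mm10, minus strand) had 11.9, 11.8 and 12.6 CPM (reads relative to TMM-scaled library size) in knockouts 1 to 3 and 9.65, 8.92 and 10.4 CPM in controls 1 to 3. The groups did not overlap on this scale, by a small gap. Relative to total counts they did overlap: control 1 was then the highest library of the 6. EdgeR put the log2 fold change at 0.32 ± 0.26 (SE), 95% interval -0.25 to 0.89, adjusted p 0.486. Star (chromosome 8, 25806555 to 25815982, plus strand) had 5.58, 5.08 and 7.92 CPM in knockouts and 5.54, 10.1 and 10.5 CPM in controls. Control 1 lay among the knockouts and the other two controls above them. Star averaged 6.19 ± 1.52 CPM in knockouts and 8.70 ± 2.75 CPM in controls (SD, n = 3 each), and its log2 fold change of -0.49 ± 0.37 (SE) gave 0.458 as its edgeR adjusted p.

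CYP11A1 makes pregnenolone from cholesterol inside mitochondria, and it receives its electrons from ferredoxin (FDX1), which ferredoxin reductase (FDXR) charges from NADPH. Cyp11a1 (chromosome 9, 58006411 to 58027023, plus strand) had 63, 73 and 113 reads in knockouts and 5, 75 and 38 reads in controls. In CPM this was 5.86, 6.62 and 10.2 in knockouts and 0.478, 7.12 and 2.91 in controls. Control 1 was almost empty of the transcript while control 2 lay within the knockout range. The log2 fold change of 1.11 ± 0.69 (SE) had an interval of -0.41 to 2.62 and an edgeR adjusted p of 0.361. It was 0.60 without control 1 and 2.13 without control 2, so single control libraries set its size. A lincRNA gene on the same strand, Gm17322, shares 3.02% of its exon bases.

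Fdx1 and Fdxr are not confined to steroid-making cells, since ferredoxins and their reductase also serve iron-sulfur assembly and lipoylation in most cells. Fdx1 (chromosome 9, 51943306 to 51963556, minus strand) had the most reads of the 10, with 79.5, 74.3 and 81.9 CPM in knockouts and 38.1, 57.8 and 50.4 CPM in controls. Every knockout library was above every control library. Fdx1 averaged 78.6 ± 3.89 CPM in knockouts and 48.8 ± 9.95 CPM in controls (SD, n = 3 each), 1.61 times as high in knockouts. Its log2 fold change was 0.69 ± 0.18 (SE), with an interval of 0.29 to 1.08 and an edgeR adjusted p of 0.0538. It was called by DESeq2 (adjusted p 0.0121) and limma-voom (0.0130), and by edgeR without a filter on low counts (0.0404). With knockout 1 and 2 as 1 library the adjusted p was 0.211 by edgeR, 0.0995 by DESeq2 and 0.0873 by limma-voom. Fdxr (chromosome 11, 115268024 to 115277050, minus strand) had 3.63, 4.63 and 0.810 CPM in knockouts and 6.30, 3.99 and 1.23 CPM in controls. Both groups spanned the same range, with replicate 3 lowest in each. EdgeR gave -0.34 ± 0.72 (SE) on the log2 scale, adjusted p 0.822.

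HSD3B1 and CYP17A1 work in the endoplasmic reticulum, the first turning pregnenolone into progesterone and the second making the androgen precursor by 17-hydroxylation and side chain cleavage. Hsd3b1 (chromosome 3, 98852194 to 98859794, minus strand) had 22.1, 22.8 and 32.3 CPM in knockouts and 9.74, 37.6 and 16.5 CPM in controls. Control 2 was the highest library of the 6 and control 1 the lowest, so the controls enclosed the knockouts. EdgeR gave 0.28 ± 0.41 (SE) on the log2 scale, interval -0.62 to 1.17, adjusted p 0.730. Hsd3b1 belongs to a family of close copies whose reads the counting could have split. Cyp17a1 (chromosome 19, 46667165 to 46673172, minus strand) had 98, 89 and 106 reads in knockouts and 45, 37 and 18 reads in controls. In CPM this was 9.11, 8.07 and 9.54 in knockouts and 4.30, 3.51 and 1.38 in controls, with no overlap. Cyp17a1 averaged 8.91 ± 0.755 CPM in knockouts and 3.06 ± 1.51 CPM in controls (SD, n = 3 each), 2.91 times as high in knockouts. Its log2 fold change of 1.55 ± 0.45 (SE) had an interval of 0.56 to 2.53 and an edgeR adjusted p of 0.0722. The adjusted p was 0.0196 by DESeq2 and 0.0179 by limma-voom, and 0.239 by edgeR and 0.0599 by limma-voom with knockout 1 and 2 as 1 library, where the log2 fold change was 1.58 by edgeR and 1.79 by limma-voom.

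NR5A1, also called SF-1, is the nuclear receptor that switches on steroidogenic genes, and in the testis both Leydig and Sertoli cells express it. Nr5a1 (chromosome 2, 38692656 to 38714542, minus strand) had 4.65, 3.54 and 5.67 CPM in knockouts and 12.5, 7.69 and 6.29 CPM in controls. All knockout libraries lay below all controls, the opposite order to Cyp17a1. Nr5a1 averaged 4.62 ± 1.07 CPM in knockouts and 8.83 ± 3.27 CPM in controls (SD, n = 3 each), with a log2 fold change of -0.93 ± 0.39 (SE). The edgeR adjusted p was 0.175 and the unadjusted p 0.0357, and the log2 fold change was -0.60 without control 1. Lhcgr (chromosome 17, 88716481 to 88791990, minus strand), the receptor gene for luteinizing hormone, had only 12, 15 and 5 reads in knockouts and 30, 6 and 28 reads in controls. The groups overlapped, and at this depth the interval of the log2 fold change ran from -2.82 to 0.97 (-0.93 ± 0.86 SE, edgeR adjusted p 0.554; -0.49 without control 1 and -1.34 without control 2). Insl3 (chromosome 8, 71689214 to 71690575, plus strand), the gene of the Leydig hormone that guides testis descent, had 17, 14 and 22 reads in knockouts and 3, 21 and 6 reads in controls. Control 2 again stood with the knockouts, and edgeR gave 0.82 ± 0.91 (SE) on the log2 scale, adjusted p 0.632. It was 0.40 without control 1 and 2.08 without control 2. Jak3 shares 64.8% of the exon bases of Insl3 on the same strand, so reads from there could have gone to either gene.

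**Figure D2:**
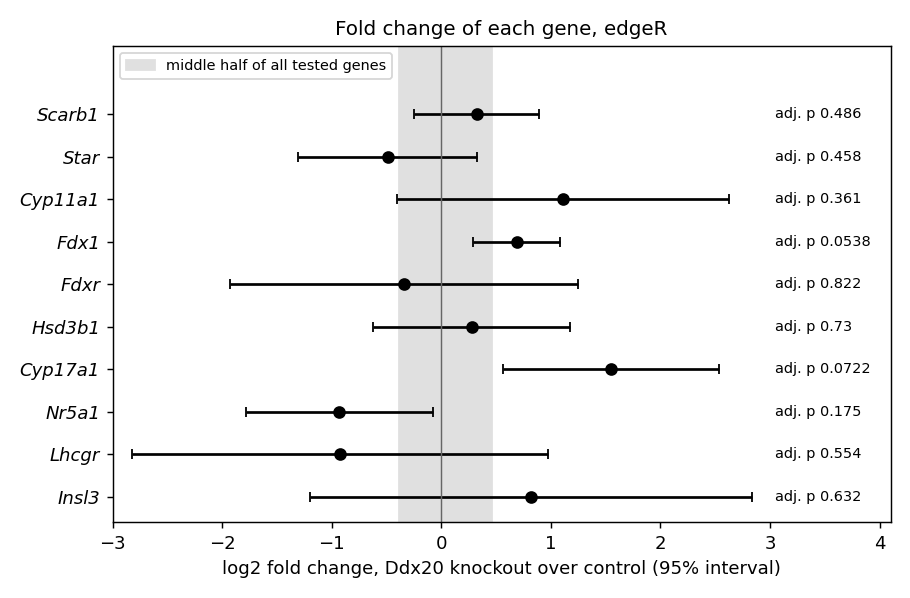
Log2 fold change of the 10 genes, knockout over control, by the edgeR quasi-likelihood test with 95% intervals and adjusted p; the grey band is the interquartile range of all 14766 genes tested. Intervals of Fdx1, Cyp17a1 and Nr5a1 exclude 0, and none of the 10 has an adjusted p under 0.05.

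Per exon length the genes differed in level, given here as RPKM (CPM per kilobase of exon; mean ± SD, n = 3 each). Fdx1 stood first at 25.3 ± 1.25 in knockouts and 15.7 ± 3.21 in controls. Hsd3b1 was next at 13.9 ± 3.08 in knockouts and 11.5 ± 7.83 in controls, where its spread reached the level of Fdx1. The others were much lower and close together. In knockouts the order ran Cyp17a1 (3.22 ± 0.273), Insl3 (2.58 ± 0.572), Cyp11a1 (1.57 ± 0.479), Star (1.51 ± 0.369), Scarb1 (1.42 ± 0.0518), Nr5a1 (1.09 ± 0.252) and Fdxr (1.08 ± 0.705). Cyp17a1 and Insl3, Insl3 and Cyp11a1, the set of Cyp11a1, Star and Scarb1, and the pair of Nr5a1 and Fdxr overlapped in mean ± SD. Scarb1 and Nr5a1 did not, by a small gap. Nr5a1 and Fdxr also overlapped Star and Cyp11a1 in this way, and Fdxr overlapped Scarb1. In controls it ran Star (2.12 ± 0.668), Nr5a1 (2.08 ± 0.770), Insl3 (1.47 ± 1.51), Fdxr (1.37 ± 0.906), Scarb1 (1.14 ± 0.0884), Cyp17a1 (1.11 ± 0.545) and Cyp11a1 (0.729 ± 0.699), all neighbours within their spread. Lhcgr was last in both groups, at 0.128 ± 0.0616 in knockouts and 0.243 ± 0.154 in controls. The place of Insl3 is uncertain, as it rests on 3 to 22 reads per library and Jak3 shares 64.8% of its exon bases.

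Leydig-restricted transcripts were a trace of each library. The 6 genes that mark Leydig cells most closely (Star, Cyp11a1, Cyp17a1, Hsd3b1, Lhcgr and Insl3) together held 488, 498 and 693 reads in knockouts 1 to 3 and 243, 641 and 442 reads in controls 1 to 3. As a share of all reads this was 0.00419%, 0.00418% and 0.00554% in knockouts and 0.00288%, 0.00581% and 0.00372% in controls. The exact 95% intervals, which cover counting error only, were 0.00514% to 0.00597% in knockout 3 and 0.00537% to 0.00628% in control 2, which overlap. Control 1 lay below the rest, at 0.00253% to 0.00327%. Summed CPM was 45.4, 45.2 and 62.4 in knockouts and 23.2, 60.8 and 33.9 in controls, a mean of 51.0 ± 9.88 in knockouts and 39.3 ± 19.4 in controls (SD, n = 3 each). The controls differed among themselves by more than the group means did.

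The make-up of this trace differed among libraries as well as its size. Hsd3b1 gave 48.8%, 50.4% and 51.8% of the reads of the 6 genes in knockouts and 42.0%, 61.8% and 48.6% in controls. Star gave 12.3%, 11.2% and 12.7% in knockouts but 23.9%, 16.5% and 31.0% in controls, lower in each knockout library. Cyp11a1 gave 12.9%, 14.7% and 16.3% in knockouts and 2.06%, 11.7% and 8.60% in controls, higher in each knockout library. Ratios within a library do not depend on scaling. Star to Cyp11a1 was 0.952, 0.767 and 0.779 in knockouts and 11.6, 1.41 and 3.61 in controls. Star to Cyp17a1 was 0.612, 0.629 and 0.830 in knockouts and 1.29, 2.86 and 7.61 in controls. For both ratios the groups were apart, with an exact two-sided permutation p of 0.10, the smallest that 3 against 3 allows, and an adjusted p of 0.321 over the 45 pairs of the 10 genes. The groups did not overlap in 14 of the 45 ratios (31.1%), against 29.3% of all pairs of tested genes with a read in every library. Among the 15 pairs of the 6 Leydig-restricted genes they did not overlap in 6 (40.0%). The count over the 45 pairs is near the background. Pairs share genes, and the counts were not tested. The ratios of Star to Cyp11a1 and to Cyp17a1 were chosen after their values were seen.

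**Figure D3:**
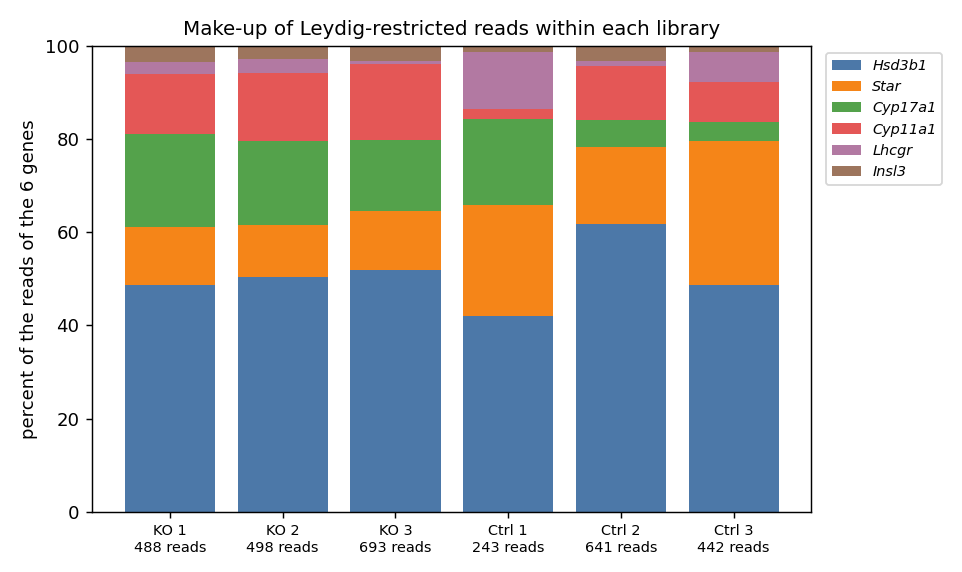
Percent of the reads of 6 Leydig-restricted genes that each gene gave in each library, knockouts on the left and controls on the right, with the summed reads under each bar. Star takes 11.2% to 12.7% in knockouts and 16.5% to 31.0% in controls, and Cyp11a1 12.9% to 16.3% in knockouts and 2.06% to 11.7% in controls.

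Transcripts of other somatic cells moved with the genotype, and their part in the values above was not tested. The counts of called markers below stand against 4.83% called of all genes, 2.03% higher in knockouts. Summed CPM of 8 peritubular myoid markers was 453, 458 and 342 in knockouts and 145, 149 and 176 in controls, and Acta2, Actg2 and Myl9, contractile protein genes, rose (3 of 7 tested). Of 14 tested interstitial and fibroblast markers Dcn and Lum, both matrix proteoglycan genes, rose. Of 14 tested Sertoli markers Clu, Cst12 and Cldn11, the last a tight junction gene, rose, while Amh had 1, 1 and 2 reads in knockouts and 2, 1 and 0 in controls. Sertoli marker sums were 558 to 708 CPM in knockouts and 337 to 434 CPM in controls, and interstitial ones 1784 to 1938 CPM in knockouts and 915 to 1358 CPM in controls. On the TMM scale these sums thus stood apart by genotype, unlike the Leydig-restricted sum. Relative to total counts, control 1 lay above knockout 3 for the interstitial sum and for the T lymphocyte sum below. Of 9 tested T lymphocyte markers Cd3g and Lck rose, with sums of 87.4 to 107 CPM in knockouts and 55.4 to 75.6 CPM in controls.

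Macrophage and endothelial markers had no gene called by edgeR. Of 11 tested macrophage markers edgeR called 0, with 4 at an unadjusted p under 0.05, 2 called by DESeq2 and 2 by limma-voom. Of all genes, 24.1% had an unadjusted edgeR p under 0.05, DESeq2 called 11.1% and limma-voom 19.5%, for this list and the endothelial one. The macrophage marker sums were 2150, 2262 and 3017 CPM in knockouts and 914, 1976 and 1665 CPM in controls. As for the Leydig-restricted sum, knockout 3 was highest, control 2 the highest control and control 1 lowest. Of 10 endothelial markers edgeR called 0, with 2 at an unadjusted p under 0.05, 2 by DESeq2 and 1 by limma-voom, and sums of 97.0 to 110 CPM in knockouts and 69.6 to 79.9 CPM in controls. Of 17 germ cell markers Mael and Dppa4 rose and Etv5, Gfra1 and Ret fell, which is 5 of 17 called. Their median log2 fold change was -0.46, with 11 of 17 negative. Without overlap, 8 genes lay lower and 4 higher, against 15.8% lower and 16.8% higher of all genes tested. The summed CPM, which the most abundant genes set, was 6002 to 6548 in knockouts and 4708 to 5986 in controls. Dazl, an RNA-binding protein gene of germ cells, had 3132 ± 169 CPM in knockouts and 2767 ± 401 CPM in controls (SD, n = 3 each).

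**Figure D4:**
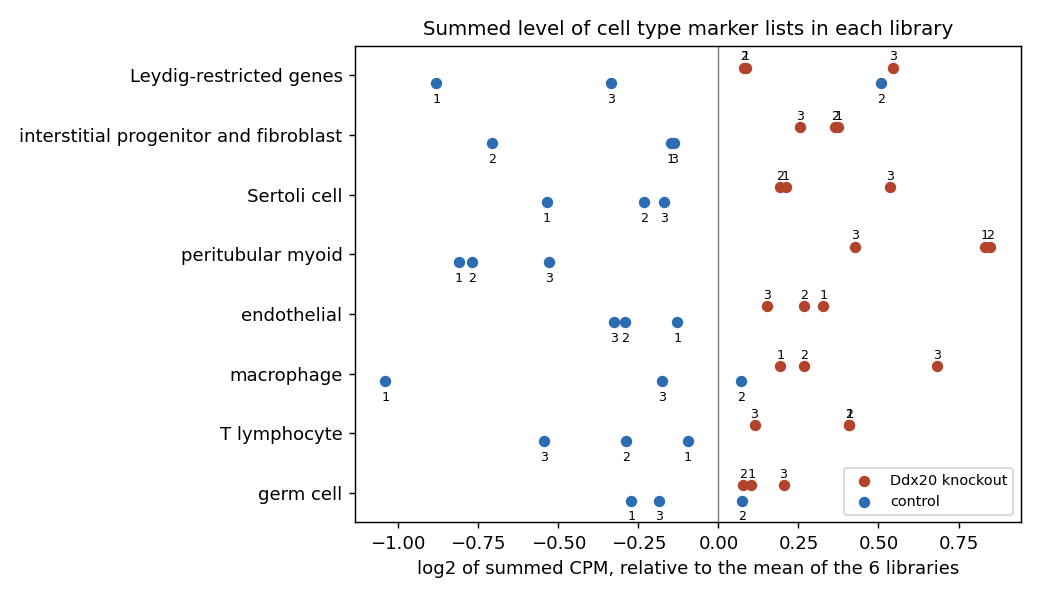
Log2 of the summed CPM of each marker list per library, relative to the mean of the 6 libraries; red points are knockouts, drawn above the blue control points, and numbers are replicates. Control 2 lies with the knockouts for the sum of the 6 Leydig-restricted genes, and this sum overlaps between genotypes. Of the 6 genes, Cyp17a1 alone does not overlap, with control 2 below every knockout. On this TMM scale the sums of the other 7 lists do not overlap. For germ cell markers the gap is narrow (6002 CPM in the lowest knockout, 5986 CPM in the highest control). Of those 17 genes, 11 have a negative log2 fold change. Relative to total counts, the interstitial, T lymphocyte, endothelial and germ cell sums overlap between genotypes.

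Among other genes that mark fetal Leydig cells, Inha and Ren1 rose in knockouts. Of 11 tested, 2 rose and 0 fell (18.2%, against 4.83% of all genes), and the median log2 fold change was 0.49. Inha, the inhibin alpha subunit gene shared by Leydig and Sertoli cells, rose to 32.9 ± 4.91 CPM in knockouts, against 9.49 ± 2.05 CPM in controls (SD, n = 3 each), or 1.79 ± 0.24 (SE) on the log2 scale (edgeR adjusted p 0.0111). Ren1, the renin gene, had 47, 55 and 45 reads in knockouts and 4, 2 and 0 reads in controls, and was called (edgeR adjusted p 0.0252). Mc2r, the receptor gene for corticotropin, had 24, 41 and 19 reads in knockouts and 0, 4 and 0 reads in controls, and did not pass (edgeR adjusted p 0.0714). Thbs2, a matrix glycoprotein gene, stood at 14.6 ± 2.41 CPM in knockouts and 14.4 ± 4.33 CPM in controls. Akr1cl, with the highest mean CPM of the list, had 643, 712 and 917 reads in knockouts and 427, 473 and 800 reads in controls, or 69.0 CPM in knockouts and 49.0 CPM in controls (edgeR adjusted p 0.167). Ptch1, the hedgehog receptor gene that Leydig precursors use, had 51.7 ± 14.6 CPM in knockouts and 56.4 ± 25.5 CPM in controls, and Prlr, the prolactin receptor gene, 20.4 ± 5.16 CPM in knockouts and 16.2 ± 6.97 CPM in controls.

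Among 13 tested enzymes of later and side steps, Sult1e1 and Cyb5r3 rose and 0 fell (15.4% called; median log2 fold change 0.45, with Sult1e1 above it also at its bound). Sult1e1, the estrogen sulfotransferase gene, had 73, 64 and 57 reads in knockouts and 0 in each control. This is at least 56.2-fold higher in knockouts against a floor of 3 reads over the control group, relative to total counts, with an edgeR adjusted p of 0.0101. Cyb5r3, a cytochrome b5 reductase gene, rose to 101 ± 12.1 CPM in knockouts, against 65.4 ± 1.90 CPM in controls (log2 fold change 0.63, edgeR adjusted p 0.0414). Cyb5a, the cytochrome b5 gene whose product helps the side chain cleavage of CYP17A1, had 475 ± 21.4 CPM in knockouts and 322 ± 71.6 CPM in controls and did not pass (edgeR adjusted p 0.111). Por, which passes electrons to CYP17A1, had 27.3 ± 4.09 CPM in knockouts and 26.9 ± 3.03 CPM in controls. Hsd17b3, the testosterone-forming enzyme of adult Leydig cells, had 6, 9 and 6 reads in knockouts and 10, 1 and 12 in controls, and was too low to be tested. Hsd17b12 had 111 ± 14.3 CPM in knockouts and 85.1 ± 13.9 CPM in controls (edgeR adjusted p 0.206). Hsd3b6, the adult Leydig form of HSD3B, was not analysed here.

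The cholesterol supply genes that edgeR called all fell, Stard4 and Abca1 among them, though other members of the list lay higher. Of 20 tested, 3 fell and 0 rose (3 of 20 called, against 4.83% of all genes; median log2 fold change 0.09). At an unadjusted p under 0.05 there were 5 higher and 6 lower, against 24.1% of all genes (11.3% higher, 12.8% lower). DESeq2 called 1 higher and 4 lower, against 11.1% of all genes (5.38% higher, 5.74% lower). Limma-voom called 3 higher and 6 lower, against 19.5% (7.8% higher, 11.7% lower). Their summed CPM on the TMM scale was 4092, 4059 and 5196 in knockouts and 2163, 4028 and 3318 in controls, higher in each knockout library. Apoe, the most abundant gene of the list, set this order: without it, controls 2 and 3 lay above every knockout. Relative to total counts, control 2 lay above knockouts 1 and 2 even with Apoe. Stard4, a sterol carrier gene related to Star, fell to 58.2 ± 9.24 CPM in knockouts, against 114 ± 22.9 CPM in controls, or -0.97 on the log2 scale (edgeR adjusted p 0.0252). Abca1, a cholesterol exporter gene, fell to 74.2 ± 1.16 CPM in knockouts, against 119 ± 7.81 CPM in controls (edgeR adjusted p 0.0274). Apoe, a lipoprotein gene of macrophages and other cells, had 2965 ± 580 CPM in knockouts and 1649 ± 714 CPM in controls and did not pass (edgeR adjusted p 0.138).

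The cyclic AMP pathway and the transcription factors that act with NR5A1 had no called gene. Of 24 tested, edgeR called 0, with 3 higher and 2 lower at an unadjusted p under 0.05, while DESeq2 called 0 and limma-voom 5 (median log2 fold change 0.15). Both counts of 5 are near the shares of all genes, 24.1% and 19.5%. Prkar1a, the regulatory subunit gene of protein kinase A, had 420 ± 12.2 CPM in knockouts and 346 ± 50.2 CPM in controls. Nr4a1, an orphan nuclear receptor gene of the response to luteinizing hormone, had 70.1 ± 13.03 CPM in knockouts and 66.0 ± 19.3 CPM in controls. Pgrmc1 had 136 ± 5.15 CPM in knockouts and 103 ± 22.1 CPM in controls, and Crem, a cyclic AMP response gene, 40.5 ± 4.05 CPM in knockouts and 26.3 ± 4.395 CPM in controls (edgeR adjusted p 0.0906).

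The partners of ferredoxin included 2 called genes. Of 16 tested genes of iron-sulfur assembly, lipoylation and mitochondrial P450 enzymes, Isca1 and Glrx5, both iron-sulfur carriers, rose and 0 fell (12.5% called; median 0.22). The log2 fold change was positive for 11 of the 16 and negative for 5, and the summed CPM of the list overlapped between genotypes. Isca1 rose to 66.5 ± 4.00 CPM in knockouts, against 38.4 ± 1.90 CPM in controls (log2 fold change 0.79, edgeR adjusted p 0.0237). Glrx5 rose to 57.2 ± 0.490 CPM in knockouts, against 35.3 ± 5.84 CPM in controls (log2 fold change 0.70, edgeR adjusted p 0.0478). Their differences were close in size to the 0.69 of Fdx1, which missed the threshold.

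**Figure D5:**
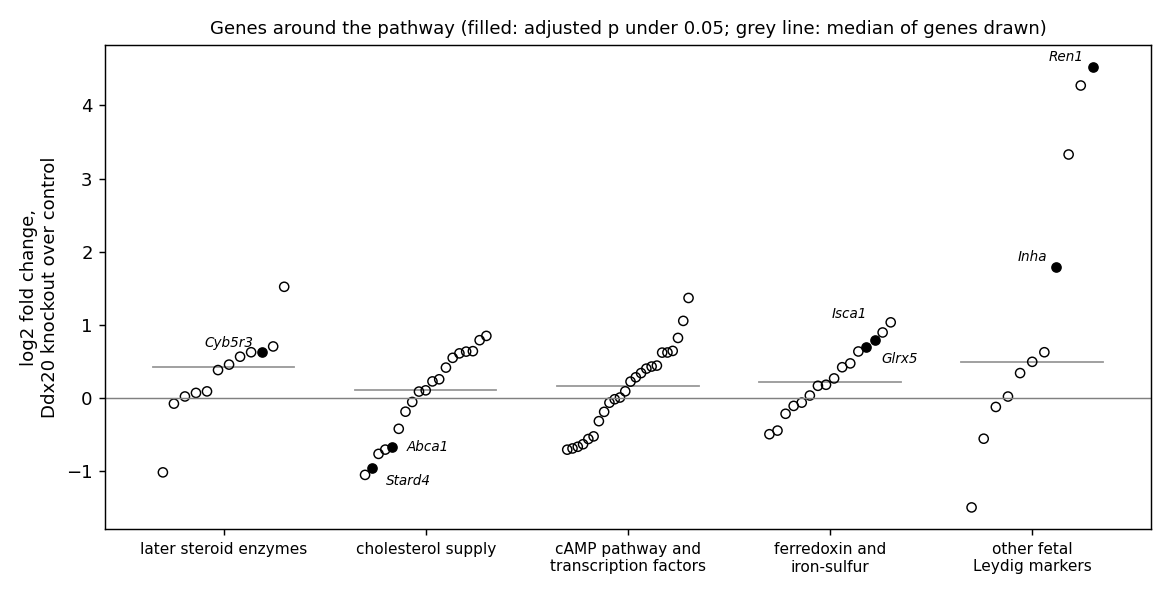
Log2 fold change, knockout over control, of genes in 5 lists around the pathway; filled points are called by edgeR, open points are not, and grey lines are medians of the genes drawn. Sult1e1, with 0 reads in all controls, is among the tested genes not drawn; Ren1 and Inha lie highest among the called genes drawn, and Stard4 and Abca1 lie below 0.

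The calls in these lists rest on the 3 knockouts as separate libraries. Of the 24 called genes of all lists, edgeR called 0 with knockout 1 and 2 as 1 library, where DESeq2 called 13, with no adjusted p for 5, and limma-voom 16. EdgeR called 1, 3 and 0 of the 24 without knockout 1, 2 and 3, and 8 without control 2.

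The genes whose pattern over the 6 libraries was most like the summed Leydig-restricted level were found by a fixed measure. Likeness was the mean absolute difference of centred log2(CPM + 1) over 6 libraries, among 13876 tested protein-coding genes. Among the nearest 5 were Medag, Timp3, Amph and Fcer1g, with differences of 0.0687 to 0.0943. Fcer1g, an immune receptor subunit gene of myeloid cells, had 678, 696 and 880 CPM in knockouts and 374, 757 and 531 CPM in controls. It repeats the order in which control 2 stands among the knockouts. Timp3, a metalloproteinase inhibitor gene, had 11.3, 8.98 and 14.5 CPM in knockouts and 5.16, 14.7 and 9.05 CPM in controls, with control 2 highest of all. EdgeR called none of the 5, and their likeness is a description only.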

How the data were processed

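RNA of 6 libraries, 3 Ddx20 knockout and 3 control, was primed with oligo-dT and made into SMART-seq2 libraries (paired ends), per the labels' protocols. The deposited values are counts of reads for each Ensembl gene, as the authors left them. Their processing notes name, without roles, STAR 2.7.5c, Trimmomatic 0.39, StringTie 2.1.7, edgeR, DESeq2 and the build mm10; counter, annotation and strand setting were not given in the sources used here. SMART-seq2 keeps no strand and has no molecular identifiers. The exact intervals of read shares cover counting error only, while the edgeR intervals of fold changes also include the spread between libraries. The deposited columns of summed counts and of mean count signal over the libraries were not used.

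Symbols and positions came from GENCODE M21 (GRCm38), which matched 22562 of 22579 identifiers. Counts were tested with edgeR 4.0.16 (quasi-likelihood, TMM, filterByExpr, genotype as the sole term) in R 4.3.3, two-sided, with Benjamini-Hochberg adjustment over 14766 genes. CPM is relative to TMM-scaled library size. Alternatives used DESeq2 1.42.0 and limma-voom with sample weights (limma 3.58.1), other scalings and filters, and left out single libraries or the mitochondrially encoded genes. Code was tested on simulated data. The labels do not tie libraries to animals, so p-values cover only how these samples vary, and that variation may be technical. The genes and lists were chosen with earlier results of these data known. Named were Ddx20, the 10 genes, and of each other list every called gene or else up to 4 of its most abundant; others were chosen after their values were seen. Some genes that this rule names are not reported here.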

Additional observations from a re-analysis of the deposited data

How the results depend on the processing

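Over the alternatives, the 10 genes gave 163 further values with an adjusted p, of which 152 kept their direction and their side of the threshold, 5 newly passed and 6 changed sign; 7 more, by DESeq2 with knockout 1 and 2 as 1 library, have no adjusted p. EdgeR called 0 of the 10 in the main analysis, 1 (Fdx1) without a filter on low counts, and 0 with each library left out; DESeq2 and limma-voom each called 2. The sign changes were all in values that never passed: Fdxr was 0.11 without knockout 3, 0.22 without control 1 and 0.43 by limma-voom (-0.78 to 0.22 with 1 library left out), Hsd3b1 was -0.068 without control 1 and -0.044 by limma-voom (-0.068 to 0.98 with 1 library left out), and Lhcgr was 0.062 by limma-voom (log2 fold change).

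Genes called in all, 713 in the main analysis, numbered 1378 with library size alone (226 higher, 1152 lower, median log2 fold change -0.26), 1641 by DESeq2 and 2882 by limma-voom. With knockout 1 and 2 as 1 library they were 1 by edgeR, 465 by DESeq2 and 505 by limma-voom; the DESeq2 and limma-voom fits with that pair were added after seeing the data. Leaving out 1 library gave 3 to 839: 5, 10 and 3 without knockout 1, 2 and 3, and 182 without control 2. With the replicate block there were 683, and 0 of the 10 genes were called. Same-numbered libraries deviated together with correlations of only 0.0076 to 0.0277 over genes, against -0.0352 to 0.0201 for different numbers. No clear pairing by number was seen, but such low values cannot exclude that the numbers mark shared litters or batches. The log2 difference of the summed Leydig-restricted level was 0.47 and ran between 0.15 without control 1 and 0.86 without control 2 with 1 library left out. The cause was not tested. Lhcgr and Insl3, at 3 to 30 reads per library, are limited by depth.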

Other observations

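Rhox5, a homeobox gene of the X chromosome in the Sertoli list, had 168, 0 and 136 reads in knockouts 1 to 3 and 126, 120 and 148 reads in controls 1 to 3. It was named after its values were seen. The missing reads are in knockout 2, which is otherwise the library closest to knockout 1. Fshr and Nr0b2 were also chosen that way. Fshr, the Sertoli receptor gene for follicle-stimulating hormone, was too low to be tested and had 37, 30 and 7 reads in knockouts and 3, 0 and 0 in controls. Nr0b2, a corepressor gene of nuclear receptors, was also untested, with 2, 5 and 12 reads in knockouts and 0 in each control.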
